A study of Mus musculus with 12 samples.

Results

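The red cell membrane skeleton genes described here are Sptb, Ank1, Epb41, Epb42, Slc4a1, Add1, Add2, Dmtn and Tmod1, 9 of the 29838 genes of the expression table. They were taken by gene name, and all 9 passed the filter on low values that left 12994 genes for testing. The values are FPKM, fragment counts divided by transcript length and by the size of the library, so that levels of different genes are compared per length.

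RNA came from erythroblasts of the bone marrow of wild type C57/BL6 male mice at 8 weeks of age. Cells carrying CD45 were depleted with beads, and live cells negative for CD45, CD11b and GR1 were sorted by Ter119, CD44 and size into proerythroblasts (Pro), basophilic (Baso), polychromatic (Poly) and orthochromatic (Ortho) erythroblasts. No treatment or mutant allele entered these groups. There were 3 libraries for each of the 4 stages, and since no label ties a library to an animal, the p-values measure the spread between libraries only.

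The membrane of the red cell is held by a lattice of spectrin tetramers whose tails meet at short actin filaments. The lattice hangs from the bilayer at the ankyrin complex, where ankyrin joins beta spectrin to the anion exchanger band 3, and at the junctional complex, where protein 4.1, the adducins, dematin and tropomodulin bind the spectrin and actin ends. Inherited loss of spectrin, ankyrin, band 3 or protein 4.2 is known to cause spherocytosis, and defects of spectrin or protein 4.1 to cause elliptocytosis. The proteins are made in erythroblasts and assembled before and during the loss of the nucleus, when protein is sorted between the young reticulocyte and the expelled nucleus.

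On the mm10 build the genes lay on 8 chromosomes, with Epb41 and Tmod1 both on chromosome 4. Sptb spanned chr12:76580488-76710547 on the minus strand, Ank1 chr8:22974844-23150497 on the plus strand and Slc4a1 chr11:102348824-102366203 on the minus strand. All were protein coding, with between 3 annotated transcripts for Sptb and 19 for Epb41, and the FPKM values do not separate the isoforms of a gene. Exons of 7 other annotated genes lay on exons of 6 members, 6 of them on the opposite strand, and the highest of these was Tstd2 opposite Tmod1, at a mean of 11.1 FPKM over the 12 libraries. The strand setting of the counting is not given in the sources used here.

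RefSeq promoter sequences (GRCm38.p6) were matched to 6 members with 8 start sites, of which Epb41 has 3, while Ank1, Slc4a1 and Dmtn had no entry. The 250 bases before the start are shown for 3 genes that differ in their course, Sptb, Epb41 at its first listed start, and Add2. Capitals mark matches on either strand to the motifs of GATA factors (AGATAA, the same letters ending in G, or either of these beginning with T) and to the CACCC motif of the KLF family (CCNCNCCC, letters which also fit GC boxes).
Sptb: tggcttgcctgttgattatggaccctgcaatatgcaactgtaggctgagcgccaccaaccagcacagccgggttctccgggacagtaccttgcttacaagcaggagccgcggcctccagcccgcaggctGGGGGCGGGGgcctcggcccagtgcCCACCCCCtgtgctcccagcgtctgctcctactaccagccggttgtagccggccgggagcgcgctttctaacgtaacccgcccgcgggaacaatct
Epb41: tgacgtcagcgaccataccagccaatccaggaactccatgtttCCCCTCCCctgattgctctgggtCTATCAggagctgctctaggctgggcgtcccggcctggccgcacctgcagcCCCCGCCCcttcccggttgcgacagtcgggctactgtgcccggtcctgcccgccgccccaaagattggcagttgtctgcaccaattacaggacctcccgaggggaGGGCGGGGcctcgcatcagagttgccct
Add2: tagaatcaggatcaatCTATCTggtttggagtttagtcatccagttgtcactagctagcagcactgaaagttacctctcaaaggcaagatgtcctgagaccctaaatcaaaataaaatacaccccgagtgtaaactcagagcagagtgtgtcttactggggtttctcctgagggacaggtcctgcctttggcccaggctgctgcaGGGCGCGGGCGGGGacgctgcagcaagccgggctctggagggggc
These windows lie at chr12:76710548-76710797 and chr4:132075314-132075563, both on the minus strand, and at chr6:86028431-86028680 on the plus strand. Sptb held 3 CACCC matches, 96 to 121 bases before the start, and no GATA match. Epb41 held a GATA match 184 bases before the start and 3 CACCC matches, the nearest 28 bases before it. Add2, whose level did not pass the test of a rise, held a GATA match at 234 bases and 2 overlapping CACCC matches at 39 and 45 bases. Of the 8 member windows 3 held a GATA match and 6 a CACCC match, against 26.5% and 45.9% of 32851 promoter windows of the same length. The matches are letters in these windows and no measure of binding.

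The depth of the libraries is unknown. A check of the low values showed no steps of whole fragments, but it pooled all pairs of libraries. Steps at a different place in each pair could be hidden by this, so the check does not settle the depth. Within a stage libraries correlated at 0.973 to 0.984 over the tested genes, and between stages at 0.846 to 0.976, so the ranges overlapped. Hemoglobin genes took 8.45% ± 1.95 of the FPKM of Pro libraries and 35.1% ± 1.79, 36.6% ± 1.56 and 49.6% ± 2.74 of those of the Baso, Poly and Ortho libraries (SD, n = 3). The median gene of all those tested changed on the log2 scale by -0.23 from Pro to Baso, 0.03 from Baso to Poly, -0.08 from Poly to Ortho and -0.42 from Pro to Ortho. With hemoglobin genes left out and the libraries rescaled, these medians became 0.03, 0.06, 0.04 and -0.03. Erythroid markers were found in every library, their summed FPKM being 20424 to 31592 in Pro and 166563 to 199094 in Ortho. All 8 neutrophil markers also passed the filter, and their FPKM summed to 6664 to 8426 in Pro, to 11588 to 13649 at the Baso stage, to 14950 to 17743 at Poly and to 13267 to 16514 at Ortho. B cell markers summed to 131 to 209 in Pro and 413 to 428 in Ortho, and megakaryocyte and platelet markers to 78.1 to 137 and 45.8 to 54.8. Macrophage markers summed to 17.0 to 20.9 in Pro and 35.1 to 42.2 in Ortho, with no overlap between stages, and T and NK cell markers to 22.1 to 32.4 and 38.7 to 43.9, with 4 genes of each list under 1 FPKM in every library. Early erythroid markers summed to 86.5 to 102 in Pro and 130 to 136 in Ortho. In this list the mean of Kit was 17.8 in Pro and 14.5 in Ortho, while Myb, Cd34 and Gata2 were higher in Ortho. Of the megakaryocyte and platelet markers, Itga2b (18.9 and 25.0) and Itgb3 (6.03 and 7.09) were higher in Ortho, and the others lower. Of the macrophage markers Vcam1 was lower in Ortho (3.03 and 2.25), and the others higher. The part of other cells in the results below was not tested, and in sorted bulk cells a change in the share of cells and a change in RNA per cell cannot be told apart.

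Most of the skeleton genes rose at the first step, and at the last step 1 was called higher and 2 lower. From Pro to Baso, 6 of the 9 genes rose by the test used throughout (limma on log2(FPKM + 1), with an adjusted p under 0.05 and at least 1 log2 unit of change) and 0 fell, while Ank1, Add1 and Add2 did not pass, against 1.82% of all tested genes called higher and 8.54% called lower. No member was lower at an unadjusted p under 0.05 either, and the median change of the 9 genes was 1.32 on the log2 scale. From Baso to Poly none of the 9 was called by limma, where 0.0616% of all genes were called higher and 0.454% lower, and only Add2, lower in Poly, had an unadjusted p under 0.05. From Poly to Ortho Epb41 rose while Sptb and Dmtn fell, against backgrounds of 1.05% higher and 4.81% lower. At an unadjusted p under 0.05, 1 of the 9 was higher and 6 were lower at this step. Over the whole course from Pro to Ortho, Epb41, Slc4a1, Tmod1 and Epb42 ended higher and 0 genes were called lower, where 6.33% of genes were called higher and 23.8% lower. In that last comparison 2 genes, Sptb and Add2, were lower at an unadjusted p under 0.05 without reaching the fold required. For counts at an unadjusted p, here and in the lists below, no share of all genes is given. The medians of the 9 genes were -0.05, -0.51 and -0.01 in Poly vs Baso, Ortho vs Poly and Ortho vs Pro.

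**Figure D1:**
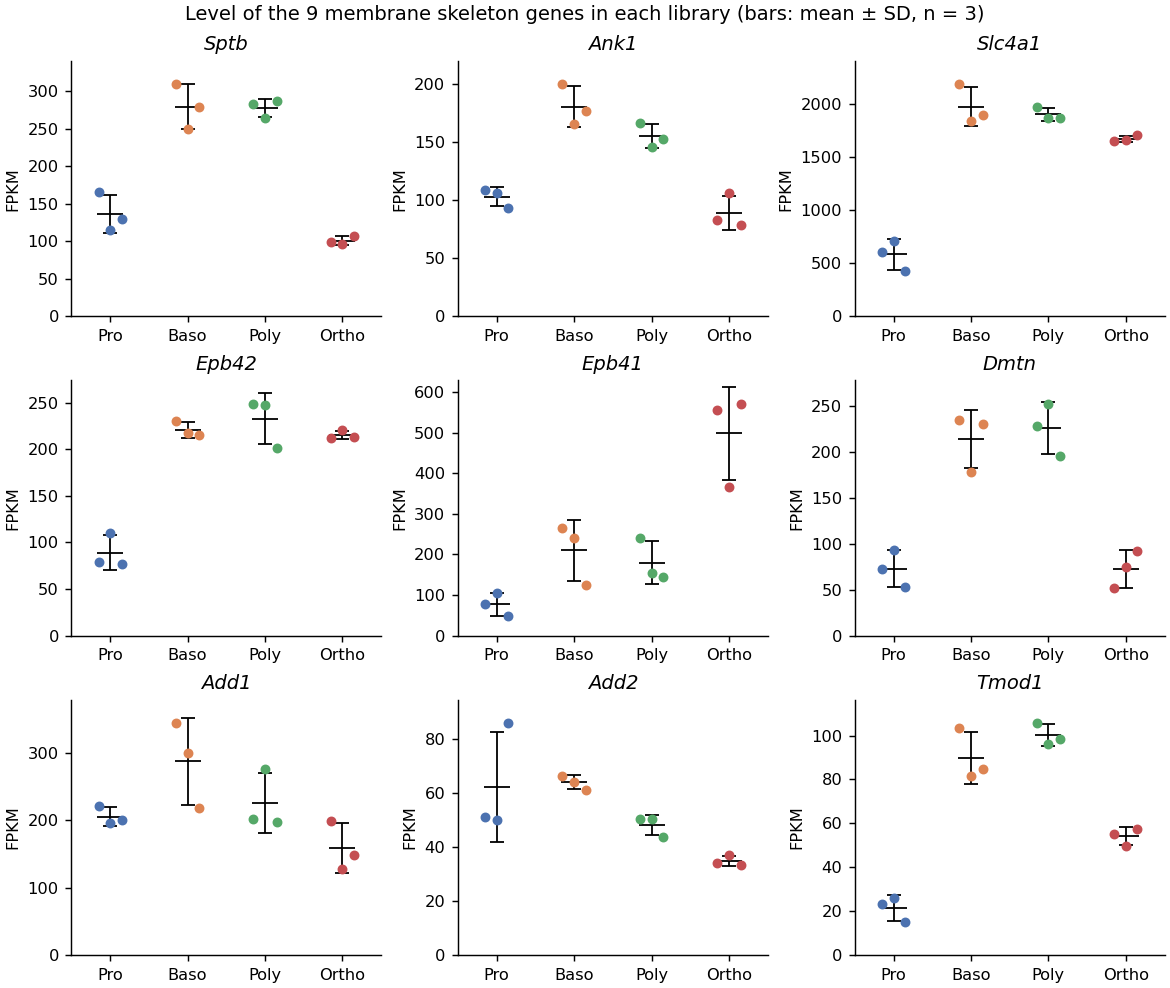
FPKM (vertical axis, from 0, each gene on its own scale) of the 9 genes in the 4 stages, with 1 point per library and bars for the mean ± SD of 3 libraries. Every Baso library of Sptb, Slc4a1, Epb42, Epb41, Dmtn, Tmod1 and Ank1 lies above every Pro library, and in Ortho Epb41 lies highest while Sptb, Dmtn, Ank1 and Tmod1 lie under their Poly libraries. The share of all genes with libraries separated in this way is not given here, so no result about the 9 genes is drawn from it.

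The scale of the libraries bears on these shares. Of all genes called from Pro to Baso, 17.6% were higher as deposited, 53.7% with hemoglobin genes left out, 57.5% after centring on the median and 8.76% after rescaling to the same sum. The same shares were 18.0%, 28.6%, 31.0% and 9.44% from Poly to Ortho and 21.0%, 63.3%, 61.6% and 6.20% from Pro to Ortho. With hemoglobin genes left out, 7 members were called higher from Pro to Baso and 4 from Pro to Ortho, where 3.76% and 15.3% of all genes were. After rescaling to the same sum the count from Pro to Ortho was 2 higher, Epb41 and Slc4a1, and 1 lower, Add2, where 2.47% of all genes were called higher and 37.4% lower.

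**Figure D2:**
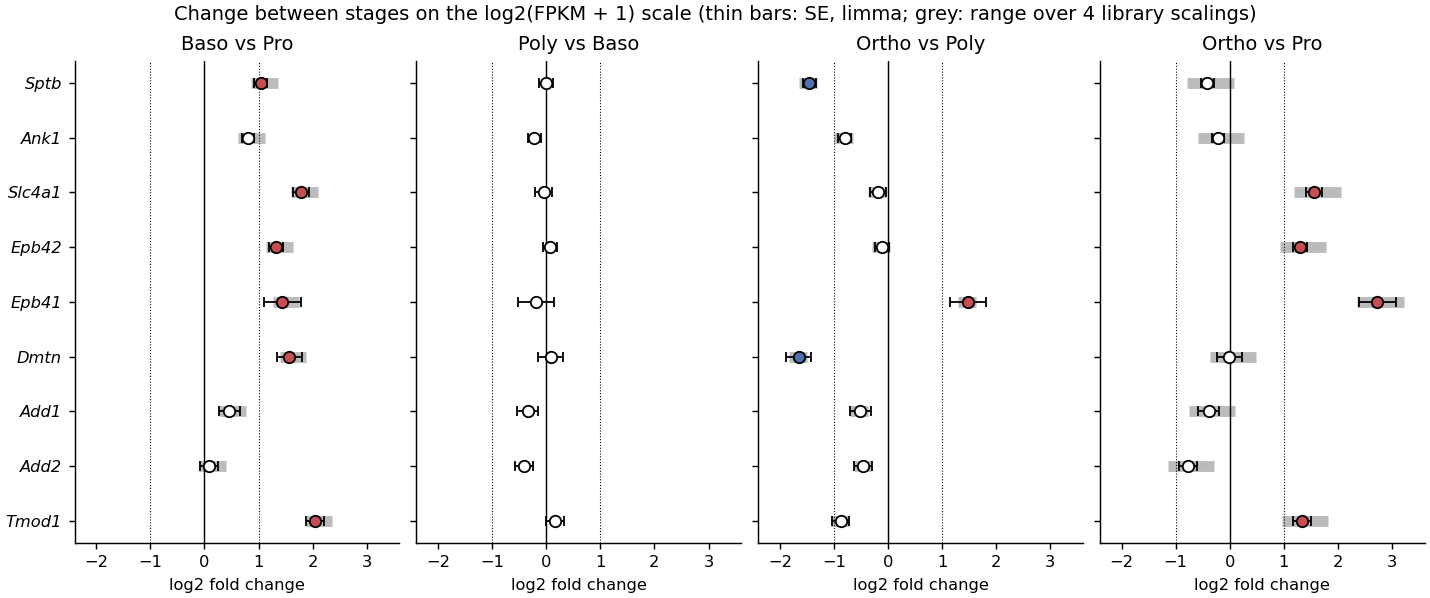
Log2 fold change (horizontal axis) of the 9 genes in 4 comparisons, with thin bars for the limma SE, grey bars for the range over 4 scalings of the libraries, red and blue points for genes called higher and lower, and dotted lines at the fold required for a call. The points of Baso vs Pro lie right of 0, those of Poly vs Baso between -0.40 and 0.16, and those of Ortho vs Poly spread from -1.65 for Dmtn to 1.48 for Epb41.

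Sptb encodes beta spectrin, the chain of the lattice strands that binds ankyrin and protein 4.1. Its FPKM was 165, 115 and 129 in the Pro libraries and 309, 250 and 279 in Baso, then 283, 264 and 287 in Poly and 99.5, 95.7 and 107 in Ortho. All Baso and Poly libraries stood above all Pro libraries, and the Ortho libraries stood below them all. The rise to Baso was a log2 fold change of 1.04 ± 0.12 (SE, adjusted p = 3.02e-05). It is close to the fold required, and the call was lost at 0.93 without Pro replicate 2, at 0.96 without Baso replicate 1 and at 0.86 with libraries rescaled to the same sum. The fall from Poly to Ortho was -1.45 ± 0.12 (adjusted p = 2.95e-06), a 2.76-fold lower mean, and lay between -1.64 and -1.31 under the 4 scalings. From Pro to Ortho the difference was -0.42 as deposited and 0.07 with hemoglobin genes left out, so no direction is given for it.

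Ank1 encodes ankyrin-1, the adaptor between beta spectrin and band 3. It was at 109, 106 and 93.6 FPKM at Pro, 200, 166 and 177 at Baso, then 166, 146 and 153 in Poly and 82.7, 106 and 78.6 in Ortho. The shape resembled that of Sptb with smaller steps, and 1 Ortho library reached the Pro range. The changes of 0.80 to Baso (adjusted p = 0.000140) and -0.80 from Poly to Ortho (adjusted p = 0.000241) were past the p threshold and under the fold required. With hemoglobin genes left out the first was 1.12 and was called.

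Slc4a1 encodes band 3, the membrane protein that exchanges chloride for bicarbonate and binds ankyrin. Its FPKM was 609, 709 and 427 in Pro, and 2186, 1843 and 1892 after the step to Baso, then 1970, 1872 and 1863 in Poly and 1653, 1659 and 1705 in Ortho. It was the highest of the 9 genes in every library, and all later libraries exceeded the Pro libraries. The rise to Baso was 1.79 ± 0.15 (adjusted p = 4.07e-06), a 3.39-fold higher mean, and Ortho stood 1.55 above Pro (adjusted p = 2.48e-06). From Poly to Ortho the libraries did not overlap, but the difference of -0.19 did not pass the test (adjusted p = 0.453).

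Epb42 encodes protein 4.2, a relative of the transglutaminases without their enzyme activity that binds band 3. It was at 78.8, 111 and 77.0 FPKM in the Pro libraries, 231, 217 and 215 in those of Baso, 249, 248 and 201 in those of Poly and 212, 221 and 214 in Ortho. After the rise to Baso, of 1.32 ± 0.13 (adjusted p = 8.83e-06), the 3 later stages overlapped. From Poly to Ortho the difference was -0.10 as deposited and 0.04 with hemoglobin genes left out (adjusted p = 0.651 as deposited). Ortho remained above Pro by 1.29 (adjusted p = 2.97e-06), which fell under the fold required, to 0.92, with libraries rescaled to the same sum.

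At the junctional complex Epb41 encodes protein 4.1, which strengthens the bond between spectrin and actin. Its FPKM was 77.2, 105 and 47.8 in the 3 Pro libraries and 265, 240 and 125 in the 3 of Baso, then 242, 155 and 143 in Poly and 557, 367 and 572 in Ortho. Its SE was the widest of the 9 genes, and yet each Ortho library stood above each library of the other stages. The rise to Baso was 1.44 ± 0.34 (adjusted p = 0.00374) and that from Poly to Ortho 1.48 ± 0.34 (adjusted p = 0.00636). Over the whole course the change was 2.73 ± 0.34 (adjusted p = 1.90e-05), a 6.49-fold higher mean, and lay between 2.36 and 3.22 under the 4 scalings. It was the largest change among the 9 genes and above that of 99.6% of the genes tested. An antisense gene, Gm10300, overlaps Epb41 at a mean of 1.13 FPKM.

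Dmtn encodes dematin, which bundles actin and links the junction to the bilayer. Libraries held 72.1, 93.6 and 53.2 FPKM at the Pro stage and 234, 178 and 230 at Baso, followed by 228, 253 and 196 in Poly and 51.5, 74.2 and 92.5 in Ortho. Baso and Poly stood clear of Pro and Ortho, which overlapped each other. The gene rose by 1.57 ± 0.23 to Baso (adjusted p = 0.000148) and from Poly to Ortho changed by -1.65 ± 0.23 (adjusted p = 0.000172), the largest fall of the 9. From Pro to Ortho the difference was -0.01 (adjusted p = 0.978), and its sign changed with the scaling, from -0.37 to 0.48.

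The adducins cap the growing end of actin and recruit spectrin to it. Add1, for alpha adducin, was at 221, 195 and 200 FPKM at Pro, 344, 300 and 218 at Baso, 202, 276 and 197 at Poly and 199, 128 and 149 in Ortho. Add2, for beta adducin, was at 51.2, 50.2 and 86.1 at Pro, 66.6, 64.2 and 61.4 at Baso, 50.3, 50.6 and 43.8 at Poly and 34.3, 37.1 and 33.4 in Ortho. Neither was called in any of the 4 comparisons as deposited. The libraries of Add1 overlapped at every step. Those of Add2 did not overlap from Baso to Poly or from Poly to Ortho, with differences of -0.40 (adjusted p = 0.132) and -0.45 (adjusted p = 0.0674). Over the whole course Add2 differed by -0.78 (adjusted p = 0.00116), under the fold required, and between -1.14 and -0.30 under the 4 scalings.

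Tmod1 encodes tropomodulin-1, which caps the pointed end of the short actin filaments and so fixes their length. The libraries had 23.0, 26.1 and 15.1 FPKM as Pro, rising to 103, 81.6 and 84.8 as Baso, with 106, 96.3 and 98.4 in Poly and 55.1, 49.6 and 57.6 in Ortho. The 3 levels, low in Pro, high in Baso and Poly and between them in Ortho, did not overlap. The rise to Baso of 2.05 ± 0.16 (adjusted p = 3.35e-06), a 4.20-fold higher mean, was the largest of the 9 at that step. From Poly to Ortho the change was -0.88 (adjusted p = 0.00161), under the fold required, and it was called at -1.06 with libraries rescaled to the same sum. Ortho stood 1.33 above Pro (adjusted p = 1.73e-05), or 0.97 with that rescaling.

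The order of the levels changed with the stage. Slc4a1 came first throughout, and by FPKM it made up 42.7% ± 4.58 of the sum of the 9 genes in Pro and 57.8% ± 2.44 in Ortho. In Pro it was followed by Add1, Sptb and Ank1, whose ranges did not overlap. Neighbours from Ank1 through Epb42, Epb41 and Dmtn to Add2 did overlap, and Tmod1 was last and clear of them. In Baso the genes from Epb42 through Dmtn and Epb41 to Ank1 overlapped, and Add2 was now last, below Tmod1. In Poly Sptb came next after Slc4a1, and the neighbours from Epb42 through Dmtn, Add1 and Epb41 to Ank1 overlapped. In Ortho the order was Slc4a1, Epb41, Epb42, Add1 and Sptb, with no overlap between these neighbours, and Add2 was again last. The summed FPKM of the 9 genes was 1349 ± 198 at the Pro stage, 3520 ± 364 at Baso, 3347 ± 157 at Poly and 2897 ± 141 at Ortho (SD, n = 3). Without hemoglobin this was 0.285% of the FPKM in Pro and 0.925%, 0.899% and 0.859% in the later stages.

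Ratios between 2 genes of a library do not depend on its scale, and 8 were tested over the 4 stages by an exact permutation test over 15400 divisions of the libraries, adjusted over the 8. The test treats the 12 libraries as exchangeable and takes no account of their replicate numbers. The ratio of Slc4a1 to Ank1 was 5.60 ± 1.05 in Pro, passed through 10.9 ± 0.20 in Baso and 12.3 ± 0.50 in Poly, and reached 19.1 ± 3.10 in Ortho (SD, n = 3), and no stage overlapped another (exact p = 6.49e-05, the smallest possible, adjusted p = 0.000519). Epb41 to Epb42 was 0.851 in Pro, 0.945 in Baso and 0.769 in Poly, and 2.32 ± 0.57 in Ortho, above every earlier library (exact permutation, adjusted p = 0.0183). The former pairs the exchanger with its anchor, and the latter pairs proteins of the junctional and the ankyrin complex.

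The capping protein ratio, Tmod1 to Tmod3, rose from 1.32 ± 0.32 at Pro to 5.45 ± 0.99 at Baso, with 4.82 ± 0.41 at Poly and 2.41 ± 0.11 at Ortho (exact permutation, adjusted p = 0.00104). Dmtn to Add2 was 1.30 ± 0.63, 3.35 ± 0.51, 4.67 ± 0.28 and 2.09 ± 0.64 over the same stages, with Pro and Ortho overlapping (exact permutation, adjusted p = 0.00390). Epb42 to Slc4a1, partners at the membrane, moved least of the ratios that passed, from 0.155 ± 0.025 in Pro to 0.112 ± 0.0063 in Baso and 0.129 ± 0.0040 in Ortho. Its adjusted p of 0.0220 by exact permutation was lost without Pro replicate 3 (0.0766), Baso replicate 1 (0.0704), Baso replicate 3 (0.0526) or Ortho replicate 1 (0.0508). The ratio of the adducins, Add2 to Add1, lay between 0.172 and 0.430 in the 12 libraries and did not pass (exact p = 0.439).

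**Figure D3:**
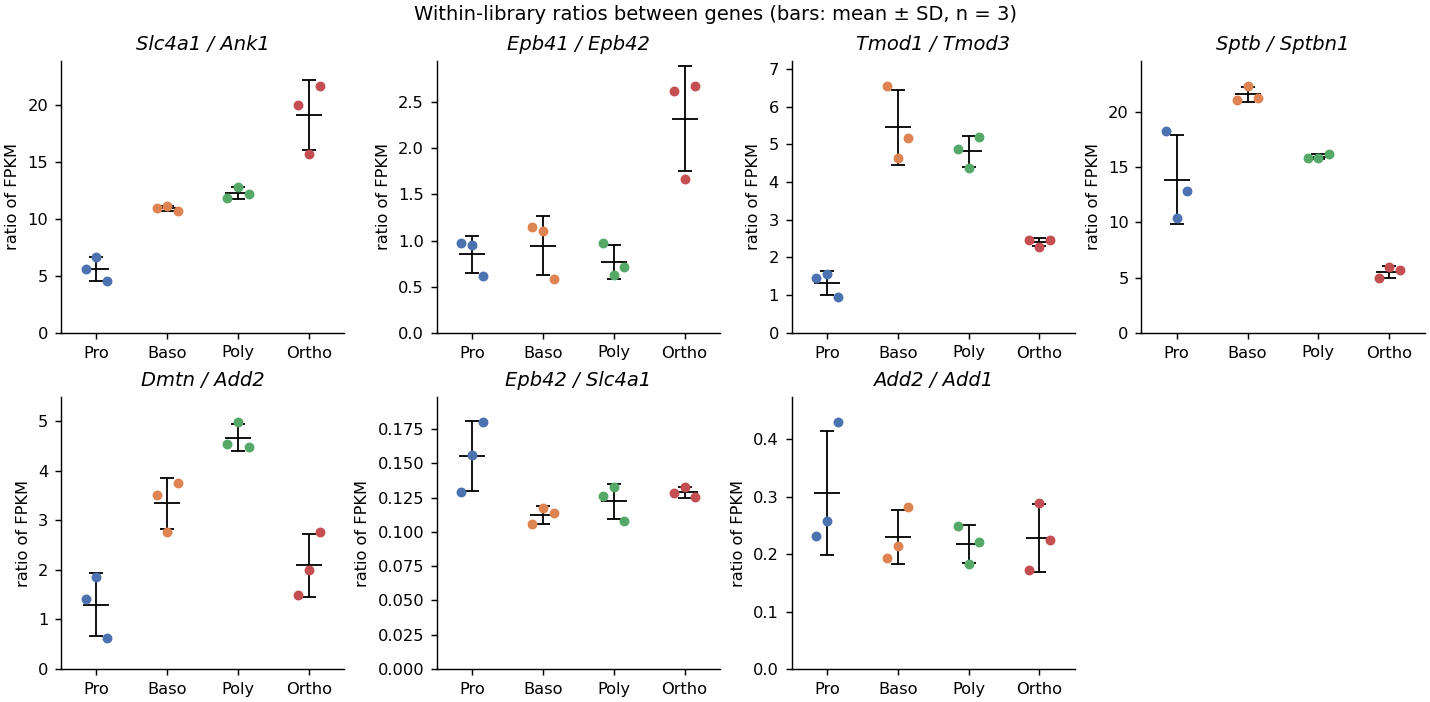
The within-library ratios of FPKM between 7 pairs of genes (vertical axis, from 0) in the 4 stages, with 1 point per library and bars for the mean ± SD of 3 libraries. Slc4a1/Ank1 climbs through all stages to 19.1 in Ortho, Epb41/Epb42 stays near 1 before Ortho, and Sptb/Sptbn1 drops to 5.52 in Ortho.

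Across the 12 libraries the log2 levels of the 9 genes correlated between -0.72 (Epb41 with Add2) and 0.98 (Slc4a1 with Epb42), and 7 of the 36 pairs were below 0. Sptb and Ank1 correlated at 0.93 and Sptb and Dmtn at 0.91, while Epb41 and Sptb were at -0.22. The libraries share their stages and their scale, so these values describe the courses and carry no test. Most like Sptb were Cenpf, a kinetochore protein (r = 0.99), and Tom1l1 (r = 0.99). Slc4a1 was most like E2f2, a cell cycle transcription factor (r = 0.99), and the globin gene Hbq1b (r = 0.99). Nearest to Epb41 were Ubap1 (r = 0.97) and Itsn1 (r = 0.96), the latter at 23.2 FPKM in Pro and 134 in Ortho. The pairs for the other genes were Hace1 and Rnf123 for Ank1, Dhrs11 and Ptp4a3 for Epb42, Slc2a4 and Mindy2 for Dmtn, and Pdzk1ip1 and Slc16a10 for Tmod1, with r between 0.96 and 0.99. For the adducins the likeness was weaker, Add1 being nearest to Atf7ip and Plekho2 and Add2 to Prkar2b and Pdcd10, with r from 0.84 to 0.91.

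Other proteins of the lattice and its actin junctions, 11 genes in all, had medians of 0.03, 0.18, 0.13 and 0.45 in Baso vs Pro, Poly vs Baso, Ortho vs Poly and Ortho vs Pro. Tpm1, a tropomyosin that lies along actin, rose from Poly to Ortho by 1.58 (adjusted p = 2.75e-05), from 20.3 to 25.0 FPKM in the Poly libraries to 68.5 to 73.1 in Ortho. Mpp1, a membrane scaffold that binds protein 4.1, was the 1 gene of the list called from Pro to Ortho as deposited. Its change was 1.07 (limma, adjusted p = 2.97e-07), where 6.33% of all genes were called higher. With libraries rescaled to the same sum it was 0.70, under the fold required. With hemoglobin genes left out 3 of the 11, Mpp1, Add3 and Tpm1, were called higher, where 15.3% of all genes were. The actins Actb and Actg1 were the most abundant, at means of 820 and 378 FPKM, and Actb varied from 523 to 1224 among the Pro libraries alone. From Baso to Poly 0 of the 11 were called by limma, where 0.0616% of all genes were called higher and 0.454% lower. At an unadjusted p under 0.05, 4 were higher and 2 lower. The share of all genes at that threshold is not given here, so no result about the list is drawn.

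Membrane proteins that sit in or beside the 2 complexes numbered 15, of which 14 were tested. From Poly to Ortho 5 of the 14 fell by limma, where 4.81% of all genes were called lower. These were Icam4 (-2.05), Aqp1 (-1.70), Gypc (-1.55), Rhd (-1.34) and Xk (-1.11), all at an adjusted p of at most 1.45e-06. The count called higher was 0, where 1.05% of all genes were, so it is not read as a result about the list. At an unadjusted p under 0.05, 13 were lower and 0 higher. Gypc encodes glycophorin C, the partner of protein 4.1 in the membrane, and it was at 204 to 217 FPKM in Poly and 65.9 to 74.1 in Ortho. Aqp1, the water channel, fell from 638 to 675 FPKM in Poly to 180 to 223 in Ortho. Over the whole course 4 were lower, Aqp1 at -1.75, Xk at -1.69, the mechanosensitive channel Piezo1 at -1.37 and Icam4 at -1.29, a count to be read against the 23.8% of all genes called lower. With hemoglobin genes left out it was 2 lower and 2 higher, against 8.88% and 15.3% of all genes. From Baso to Poly 0 were called by limma, where 0.0616% of all genes were called higher and 0.454% lower. At an unadjusted p under 0.05, 6 were lower and 0 higher. Without the share of all genes at that unadjusted threshold, the counts at it are not read as a result about the list. The medians in the 4 comparisons were 0.62, -0.10, -0.45 and -0.53.

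Of 22 relatives of the members, 10 passed the filter, and 2 of them, Add3 and Tmod3, were also counted among the junction genes. None of the 10 was called higher as deposited. In Baso vs Pro, Poly vs Baso, Ortho vs Poly and Ortho vs Pro 1.82%, 0.0616%, 1.05% and 6.33% of all genes were. At such shares this count is not read as a result about the relatives. From Poly to Ortho 1 fell, where 4.81% of all genes were called lower. This was Tgm2, the transglutaminase related to Epb42, from 14.5 to 16.1 FPKM in Poly to 2.69 to 3.73 in Ortho (-1.94, adjusted p = 8.04e-08). From Pro to Baso 0 were called by limma in either direction, where 8.54% of all genes were called lower. From Baso to Poly likewise 0 were called, where 0.454% were called lower. At an unadjusted p under 0.05, 6 were higher from Pro to Baso, and 7 higher and 1 lower from Baso to Poly. From Pro to Ortho Tgm2 was again the only one called, at -2.76 (adjusted p = 2.69e-09), where 23.8% of all genes were called lower. Of the 10, 8 were higher at an unadjusted p under 0.05 and missed the fold required. No share of all genes at that unadjusted threshold is given here, so such counts are not read as a result about the relatives. Sptbn1 was at 9.04 to 11.1 FPKM in Pro and 16.1 to 20.2 in Ortho (0.81, adjusted p = 4.66e-05), Sptan1 at 7.90 to 10.7 and 16.9 to 21.2, and Add3 at 16.8 to 18.6 and 31.7 to 34.8, all under the fold required. With hemoglobin genes left out 6 of the 10 were called higher from Pro to Ortho, where 15.3% of all genes were, and 0 with libraries rescaled to the same sum, where 2.47% were. The neutrophil, B cell, macrophage and T and NK cell marker sums given above were higher in Ortho than in Pro as well, and their part in these levels was not tested. Within libraries, Sptb to Sptbn1 was 13.8 ± 4.01 at Pro, 21.6 ± 0.67 at Baso and 15.9 ± 0.23 at Poly but 5.52 ± 0.53 at Ortho, where each library was under all others (exact permutation, adjusted p = 0.00104). The medians of the relatives in the 4 comparisons were 0.28, 0.34, 0.09 and 0.84.

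**Figure D4:**
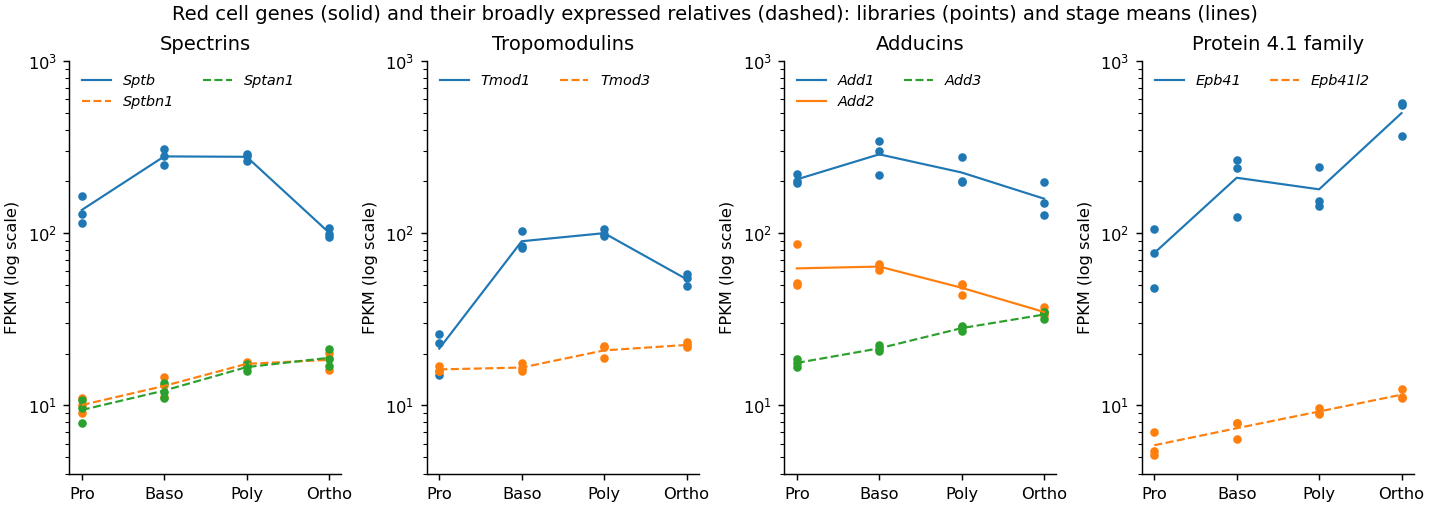
FPKM on a log axis (vertical) of red cell genes (solid lines) and their broadly expressed relatives (dashed lines) in the 4 stages, with points for libraries and lines through stage means. Sptb rises and falls while Sptbn1 and Sptan1 stay under 22 FPKM, Tmod1 starts near Tmod3 in Pro, and Add3 reaches the level of Add2 in Ortho.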

How the data were processed

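RNA of 12 libraries, 3 for each of Pro, Baso, Poly and Ortho, was analysed. Per the labels and the methods, the authors trimmed reads with cutadapt and Trimmomatic, used HISAT2 on mm10 and featureCounts for alignment and counting, and deposited FPKM per gene and library. The annotation release and tool versions are not given in the sources used here. The labels name Trizol and NEBNext, and the methods name Geek lysis and KAPA Hyper Prep. Stages came from sample titles, and 2 Ortho libraries carry only a general cell type label.

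Genes reaching 1 FPKM in 3 or more libraries (12994 of 29838) were tested with limma 3.58.1 (R 4.3.3) on log2(FPKM + 1), with a variance trend, all 12 libraries in the model and two-sided p-values adjusted by Benjamini-Hochberg over all genes. Fold changes on this scale understate those of low genes. Genes were called at an adjusted p below 0.05 and 1 or more log2 units of change. The study's count test was not used, since FPKM are not counts, and depth was not recovered. The fit was tested on simulated data. Ratios were tested by an exact permutation written with numpy 2.4.6, and annotation came from GENCODE M21. Alternatives were pseudocounts of 0.1 and 5, no filter, 3 rescalings of the libraries, fits of the compared stages alone, a replicate block, and leaving out each library. The members and gene lists were chosen with earlier results of these data known. Named genes were all members, from each list the 2 most abundant and up to 3 of the largest calls from Pro to Ortho, and for each member the 2 genes of most similar course with a mean FPKM of at least 10. Other listed genes with values, among them Tpm1, Gypc, Sptbn1 and Sptan1, were chosen after their values were seen. Results for 1 ratio and some listed genes are not reported here.

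Deviations from the stage mean of libraries with the same replicate number correlated at 0.182 to 0.238 for Baso with Poly, 0.156 to 0.264 for Baso with Ortho and 0.156 to 0.319 for Poly with Ortho, but at 0.00524 to 0.0968 with Pro. By the values alone the numbers pair Baso, Poly and Ortho, and no label gives the source of the pairing. With the replicate block the members called higher from Pro to Baso were again 6. The ratios were not tested with a block.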

Additional observations from a re-analysis of the deposited data

How the results depend on the processing

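Of 738 values for the 9 genes under an alternative, 707 kept their direction and side of the threshold, 5 lost and 4 gained a call, and 22 changed sign, none of them a call. The replicate block changed 0 of 54 member calls. With libraries rescaled to the same sum, 2 members were called higher and 1 lower from Pro to Ortho, with Epb42 at 0.92, Tmod1 at 0.97 and Add2 at -1.14. That rescaling gave 0.86 for Sptb and -0.098 for Add2 in Baso vs Pro and -1.06 for Tmod1 in Ortho vs Poly. With hemoglobin genes left out, Ank1 was 1.12 in Baso vs Pro, Sptb 0.029 in Poly vs Baso, Epb42 0.039 in Ortho vs Poly, and in Ortho vs Pro Sptb was 0.070, Ank1 0.27, Add1 0.10 and Dmtn 0.48. Centred on the median, Ank1 was 1.10 in Baso vs Pro, Epb42 0.045 in Ortho vs Poly, and in Ortho vs Pro Ank1 was 0.18, Add1 0.0043 and Dmtn 0.39. Leaving out each library gave 0.93 to 1.18 for Sptb and -0.053 to 0.33 for Add2 in Baso vs Pro, and in Poly vs Baso -0.081 to 0.072 for Sptb, -0.53 to 0.016 for Epb41, -0.097 to 0.026 for Slc4a1 and -0.048 to 0.18 for Dmtn. It gave -0.21 to 0.22 for Dmtn in Ortho vs Pro and -0.38 to -0.14 for the log2 ratio of Epb42 to Slc4a1, Ortho minus Pro. Counts over all genes moved by more than 1.5 times. In Ortho vs Pro 823 higher and 3092 lower became 321 and 4857 at the same sum, 1990 and 1153 without hemoglobin, 2078 and 1293 centred on the median and 350 and 1738 with a pseudocount of 5, and 1397 were higher with one of 0.1. In Baso vs Pro 237 higher and 1110 lower became 488 and 421 without hemoglobin, 554 and 409 centred and 145 and 453 with a pseudocount of 5, with 386 higher at 0.1 and 1822 lower at the same sum. In Ortho vs Poly 137 and 625 became 81 and 358 with a pseudocount of 5. In Poly vs Baso 8 higher and 59 lower became 28 and 94 with a pseudocount of 0.1 and 2 and 19 with 5, and the 8 became 4 without a filter, 13 without hemoglobin, 16 with only the 2 stages, 17 with the replicate block and no Pro libraries, 18 without Baso replicate 1 and 13 without Ortho replicate 3. The cause of these shifts was not tested. Depth is unknown, so that precision rests on 3 libraries a stage.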
